A study of Mus musculus with 2 samples.

Results

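Mesothelial cells of the mouse mesentery were taken as the cell barcodes that carried at least 5 UMIs, summed, of the marker genes Msln, Upk3b, Lrrn4, Krt19, Gpm6a and Nkain4, no UMI of the leukocyte gene Ptprc and at most 1 UMI of the endothelial genes Cdh5 and Cldn5 together. A UMI, or unique molecular identifier, counts 1 captured mRNA molecule. The rule chose 226 of the 3143 barcodes with 200 genes or more and no more than 10% of UMIs from mitochondrial genes: 62 of 1484 in Mouse 1 and 164 of 1659 in Mouse 2. The remaining 1422 and 1495 barcodes of the same libraries are called all other barcodes. Both animals were untreated wild-type male C57BL/6N mice, and their whole mesenteries were digested with Liberase DH, an enzyme blend that frees cells from tissue. Each mouse gave 1 library made with the droplet-based Chromium system (10x Genomics, version 2 chemistry), which counts the 3′ ends of mRNAs. With 1 group of 2 mice there was no treatment to compare. All comparisons are between kinds of cells within the same libraries, and pairs of values are given for Mouse 1 and then Mouse 2.

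The mesothelium is the single layer of flat cells that lines the peritoneal, pleural and pericardial cavities and covers the organs in them, the mesentery included. It derives from mesoderm, yet its cells sit on a basement membrane, are joined by junctions and carry keratins, as epithelia do. Mesothelial cells are known for a microvillous, glycoprotein-rich surface that lets organs slide, for moving fluid and solutes, and for secreting complement, fibrinolytic enzymes, growth factors and matrix. In development they express the zinc finger transcription factor Wt1 and give rise to fibroblasts and smooth muscle of several organs.

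Mesothelial barcodes made up 4.18% of Mouse 1 (exact Clopper-Pearson 95% interval 3.22 to 5.32%) and 9.89% of Mouse 2 (8.49 to 11.4%), intervals that cover counting error only. The libraries held 5137671 and 5563521 UMIs over 1517 and 1687 deposited barcodes, and they shared 0 barcode sequences. The median mesothelial barcode had 6707.5 UMIs in Mouse 1 and 5814.5 in Mouse 2, against 3031 and 2443 in all other barcodes, so mesothelial barcodes were the deeper ones. In sum they held 404852 and 942362 UMIs, and a gene with no UMI among them could still stand at up to 7.41 and 3.18 CPM, counts per 1000000 UMIs, the scale of all levels below. Scrublet, a doublet caller, marked 1 mesothelial barcode in Mouse 1 and 0 in Mouse 2, among 39 and 4 of all barcodes, and none was removed.

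The marker sum split the barcodes with few in between. A sum of 0 was found in 1374 barcodes of Mouse 1 and 1440 of Mouse 2, and a sum of 3 or 4 in 4 and 3. Sums of 18 or more were reached by 56 mesothelial barcodes in Mouse 1 and 107 in Mouse 2. The 1 and 10 mesothelial barcodes just inside the threshold, with sums of 5 or 6, had a median depth of 1743 and 1876 UMIs and stood at 1147 and 601 CPM for Wt1. The 3 barcodes in each mouse with sums of 3 or 4 that passed the exclusions had 3995 and 1801 UMIs and stood at 406 and 415 CPM for Wt1. All 6 markers were seen in 41 mesothelial barcodes of Mouse 1 and 73 of Mouse 2, and no mesothelial barcode had fewer than 2 of them. A further 6 and 12 barcodes reached the sum but failed on Ptprc, Cdh5 or Cldn5.

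**Figure D1:**
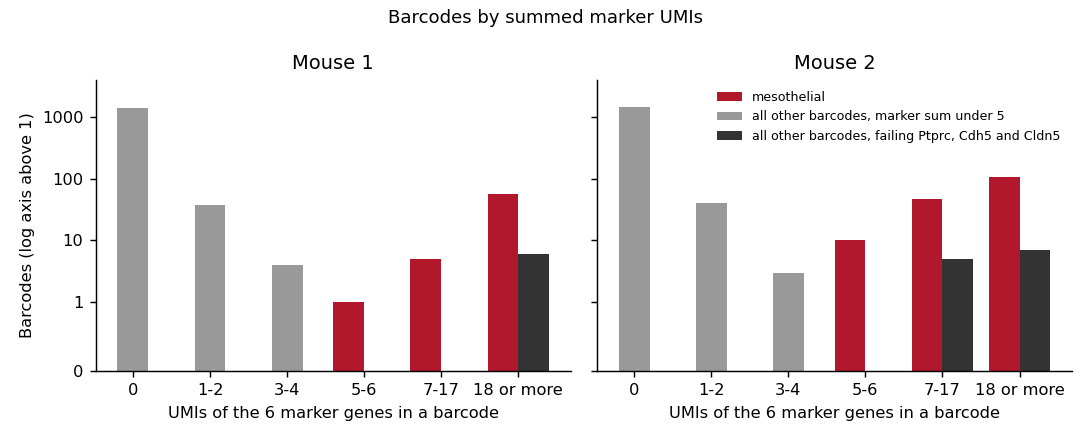
Number of barcodes (vertical axis, logarithmic above 1) by the summed UMIs of the 6 marker genes (horizontal axis), in Mouse 1 (left) and Mouse 2 (right). Red bars are mesothelial barcodes, grey bars all other barcodes under the threshold, and black bars those that failed on Ptprc, Cdh5 or Cldn5; sums of 3 to 6 hold few barcodes in either mouse.

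The marker genes chose these barcodes, so their levels are a description with no test. Upk3b, a uroplakin of plaque-forming membranes (ENSMUSG00000042985, chromosome 5, 136038496 to 136046487 on GRCm38), stood at 2258 and 2178 CPM in mesothelial barcodes and 24.4 and 28.9 CPM in all other barcodes. Nkain4, which codes for a sodium pump-interacting protein, stood at 810.2 and 656 CPM, Gpm6a, a neuronal-type membrane glycoprotein, at 664 and 686 CPM, and the keratin Krt19 at 610.1 and 498 CPM in mesothelial barcodes. Lrrn4, a leucine-rich repeat membrane protein, was at 548 and 473 CPM and Msln, mesothelin, a surface glycoprotein that binds the mucin Muc16, at 419.9 and 349 CPM there. In all other barcodes Gpm6a was at 10.9 and 11.2 CPM, Lrrn4 at 4.5 and 8.75 CPM and Msln at 5.14 and 4.81 CPM. Ptprc was at 0 and 0 CPM in mesothelial barcodes by construction, and Cdh5 and Cldn5 were at 0 and 1.06 and at 4.94 and 5.31 CPM.

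Of 11287 genes tested, the quasi-likelihood test of edgeR called 2358 higher and 2858 lower in mesothelial than in all other barcodes, 46.2% of the genes in either direction, 20.9% higher and 25.3% lower, with a median log2 fold change of −0.07. In 5177 of the 5216 called genes both mice had the same direction, a count that follows largely from calling genes on the same 2 mice. The genes of the choosing rule were left out. UMIs were summed over the barcodes of each kind in each mouse, and a gene was called at an adjusted p under 0.05. The test rests on 4 sums with 1 residual degree of freedom and has the mouse as a term. Its p-values measure only how the difference between kinds varied between the 2 mice, with the spread shared across genes. The Wald test of DESeq2 called 946 higher and 1091 lower. With edgeR against the equally weighted mean of fibroblast-, endothelial- and leukocyte-marked barcodes, defined below, the balance turned to 2530 higher and 1865 lower.

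The label was checked against defining genes of the other cells a mesentery holds. Since the rule asked for no Ptprc and almost no Cdh5 and Cldn5, low leukocyte and endothelial markers follow largely from the choice of barcodes and support nothing. Of 11 tested blood endothelial markers 11 were lower in mesothelial than in all other barcodes, as were 10 of 10 macrophage and monocyte, 7 of 7 T and NK, 4 of 4 B, 9 of 9 ILC2, 3 of 3 lymphatic, 6 of 6 adipocyte and 5 of 5 red cell and platelet markers. Of 5 dendritic markers 4 were lower, the 1 tested neural marker was lower, and of 2 tested gut and gland markers Cela1 was higher. The adipocyte list summed to 17145 and 12517 CPM in endothelial-marked barcodes and to 91.8 and 131 CPM in fibroblast-marked ones. The red cell and platelet list summed to 7294 and 13630 CPM, against 38.1 and 23.2 CPM. The lower calls of both lists thus also follow largely from the choice of barcodes. Against fibroblast-marked barcodes, defined below, 18.2% of all genes tested were higher and 18.7% lower. Of 7 tested adipocyte markers 3 were higher and 0 lower there. Of 6 red cell and platelet markers 0 were higher and 1 lower there. The summed level of the 8 T and NK markers was 2.47 and 3.18 CPM in mesothelial barcodes, against 344.4 and 301.3 CPM in all other barcodes. That of the 10 macrophage markers was 113.6 and 93.4 CPM, against 3448 and 3194 CPM. Of genes that define single kinds, Flt1, Plvap, Adgre1, Ly6c2, Cd3g and Ms4a1 were at 0 in mesothelial barcodes of both mice. Most members of their lists were not: 2 of 13 blood endothelial and 2 of 10 macrophage and monocyte markers were at 0. So were 4 of 8 T and NK and 1 of 5 B markers. The blood endothelial list summed to 158.1 and 192.1 CPM in mesothelial barcodes, against 2350 and 2086 CPM in all other barcodes. The gut epithelial markers Cdh1 and Epcam were at 0 and 1.06 and at 0 and 5.31 CPM, and the enterocyte and pancreatic genes Fabp1, Prss2 and Pnlip at 0. Fibroblast markers divided: Dcn, Col3a1, Col1a2, Col1a1 and Cd34 were higher in mesothelial than in all other barcodes, and Pdgfra, Pi16, Dpt, Lum and Col14a1 were lower. All other barcodes are a mixture. Of the 3 markers tested against fibroblast-marked barcodes, Pi16, Cd34 and Col14a1, all were lower in mesothelial barcodes. That follows in part from picking fibroblast-marked barcodes by other genes of the same list. The pericyte and smooth muscle list divided too, with Acta2 higher, at 119 and 90.2 CPM in mesothelial and 12.2 and 1.31 CPM in all other barcodes, and Des higher, at 32.1 and 52 CPM, against 27.4 and 26.5 CPM, while Rgs5, Notch3, Kcnj8 and Abcc9 were lower. Myh11 and Cnn1, which mark mature smooth muscle, were at 0 and 1.06 and at 0 and 2.12 CPM in mesothelial barcodes.

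The 15 largest increases among genes with at least 100 CPM in mesothelial barcodes of both mice were Igfbp2, Krt7, Upk1b, Krt8, Krt18, Chrdl1, Myrf, Tmem151a, Cldn10, AI661453, Cxadr, Fmod, Lgals7, Gsta4 and Slpi. In each of them both mesothelial values lay above both values of all other barcodes, which follows largely from choosing the largest differences. Igfbp2, a secreted binding protein of insulin-like growth factors (chromosome 1, 72824503 to 72852474), was at 429.8 and 222 CPM in mesothelial and 3 and 2.19 CPM in all other barcodes (log2 fold change 6.78, SE 0.20, adjusted p = 2.74e-29, edgeR). The simple-epithelial keratins Krt7, Krt8 and Krt18, all on chromosome 15, were each higher. Krt7 was at 244 and 219.7 CPM in mesothelial and 2.78 and 2.62 CPM in all other barcodes (log2 fold change 6.24, SE 0.22), Krt8 at 252 and 333 CPM, against 4.28 and 4.16 CPM, and Krt18 at 311 and 375 CPM, against 5.57 and 5.03 CPM. Upk1b, the tetraspanin partner of Upk3 proteins, was at 408 and 337 CPM, against 5.35 and 4.81 CPM (log2 fold change 6.03, SE 0.17). The barcodes that reached the marker sum but failed the exclusions are among all other barcodes. In barcodes with a marker sum of 0 that passed the exclusions, Igfbp2 stood at 0.44 and 0 CPM and Krt18 at 1.33 and 0.89 CPM. Slpi, a secreted inhibitor of leukocyte proteases (chromosome 2, 164354070 to 164389095), reached 2571 and 2622 CPM, against 72.1 and 57.8 CPM (log2 fold change 5.17, SE 0.10, adjusted p = 6.06e-36, edgeR).

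Other genes of this group code for proteins of varied kinds. Fmod, a small proteoglycan that binds collagen, was at 608 and 448 CPM in mesothelial and 10.7 and 12 CPM in all other barcodes. Chrdl1, a secreted antagonist of bone morphogenetic proteins, was at 116 and 102 CPM, against 0.856 and 2.41 CPM; its log2 fold change of 5.85 became 5.19 without Mouse 1 and 6.74 without Mouse 2. Cxadr and Cldn10, a junctional adhesion receptor and a claudin, stood at 254 and 247 CPM and at 163 and 167 CPM in mesothelial barcodes. Myrf, a membrane-bound transcription factor, stood at 190.2 and 195 CPM and the galectin Lgals7 at 292 and 252 CPM there. The glutathione transferase Gsta4 was at 158 and 104 CPM in mesothelial barcodes and 3.42 and 2.41 CPM in all other barcodes.

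**Figure D2:**
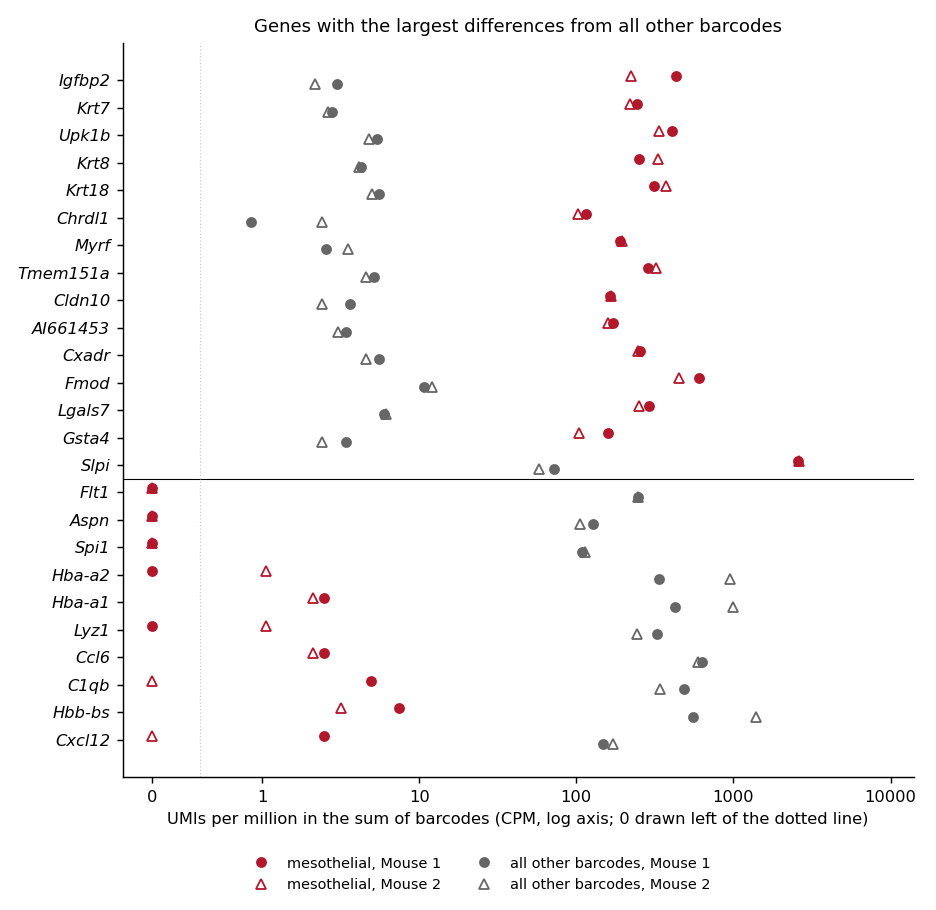
Level (horizontal axis, CPM, logarithmic, with 0 drawn left of the dotted line) of the 15 genes with the largest increases (above the line) and the 10 with the largest decreases (below it). Mesothelial barcodes are red and all other barcodes grey. Filled circles are Mouse 1 and open triangles Mouse 2. In no gene do the colours overlap, which follows largely from how the genes were chosen.

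The sequence before the transcription start is shown for the marker with the highest level, Upk3b, for Igfbp2 and Krt7, which led the increases, and for Slpi, which varied most among mesothelial barcodes. Each run holds the 250 bases that end just before the RefSeq start on GRCm38.p6, 5′ to 3′ on the strand of the gene, with motif matches in capitals. Motifs were searched on both strands. The Wt1-type site was spelled GNGNGGGAG. The site of Gata factors was spelled AGATAA. The GC box, bound by Sp factors, was spelled GGGCGG.
Upk3b, chr5:136038246-136038495, plus strand: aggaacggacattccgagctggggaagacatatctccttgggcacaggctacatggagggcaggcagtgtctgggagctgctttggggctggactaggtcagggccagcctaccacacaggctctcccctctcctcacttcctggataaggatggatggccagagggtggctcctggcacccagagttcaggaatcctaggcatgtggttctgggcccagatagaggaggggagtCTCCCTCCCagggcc
Igfbp2, chr1:72824230-72824479, plus strand: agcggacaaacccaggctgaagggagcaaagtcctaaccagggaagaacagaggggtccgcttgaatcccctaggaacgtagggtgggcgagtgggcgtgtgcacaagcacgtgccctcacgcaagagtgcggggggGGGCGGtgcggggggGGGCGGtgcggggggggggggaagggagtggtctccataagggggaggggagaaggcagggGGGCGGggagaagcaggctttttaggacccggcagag
Krt7, chr15:101412153-101412402, plus strand: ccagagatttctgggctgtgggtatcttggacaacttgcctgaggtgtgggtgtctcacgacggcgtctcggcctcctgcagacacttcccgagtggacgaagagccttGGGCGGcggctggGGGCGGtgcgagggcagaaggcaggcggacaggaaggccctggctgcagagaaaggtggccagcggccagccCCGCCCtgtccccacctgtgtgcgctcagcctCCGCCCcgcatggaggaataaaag
Slpi, chr2:164356508-164356757, minus strand: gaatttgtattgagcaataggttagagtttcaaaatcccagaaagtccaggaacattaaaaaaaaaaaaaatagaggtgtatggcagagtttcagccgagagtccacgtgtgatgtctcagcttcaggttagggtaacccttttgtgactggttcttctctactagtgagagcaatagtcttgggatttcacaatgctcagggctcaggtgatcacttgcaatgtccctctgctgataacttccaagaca
Upk3b held 1 Wt1-type match, Igfbp2 held 3 GC boxes, Krt7 held 4, and the Slpi window held none of the 3 motifs. Of the 15 genes with the largest increases over all other barcodes, 10 had a RefSeq promoter here, and 2 of these held a Wt1-type match, 2 a Gata site and 6 a GC box. Among 32851 promoter windows of the same length the shares were 15.2%, 9.99% and 32.7%. A match describes letters and not a bound site.

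The 10 largest decreases, among genes with at least 100 CPM in all other barcodes of both mice, were Flt1, Aspn, Spi1, Hba-a2, Hba-a1, Lyz1, Ccl6, C1qb, Hbb-bs and Cxcl12. These are genes of endothelium, fibroblasts, macrophages and red cells. The rule left out most endothelial cells and leukocytes, so low Flt1, Spi1, Lyz1, Ccl6 and C1qb follow largely from the choice of barcodes. Of the marked kinds defined below, endothelial-marked barcodes held most hemoglobin transcripts, with Hba-a1 at 2170 and 4058 CPM. Hba-a1, Hba-a2 and Hbb-bs were not called against fibroblast-marked barcodes (adjusted p = 0.876, 0.636 and 0.103, edgeR). Their decrease thus also follows largely from that choice. Flt1, a receptor of vascular endothelial growth factor, Aspn, a collagen-binding proteoglycan, and Spi1, a myeloid transcription factor, had no UMI in mesothelial barcodes. In all other barcodes Flt1 stood at 248 and 246 CPM, Aspn at 128 and 106 CPM and Spi1 at 109 and 113 CPM. DESeq2 did not call Aspn or Spi1 (adjusted p = 0.118 and 0.121). Cxcl12, a chemokine of stromal and endothelial cells, was at 2.47 and 0 CPM in mesothelial and 148 and 172 CPM in all other barcodes. Ccl6 was at 2.47 and 2.12 CPM, against 626 and 599 CPM. Near 0 a fitted fold moves by whole units with a single molecule, so levels are given in place of folds.

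Because all other barcodes are a mixture, mesothelial barcodes were also set against 3 kinds of barcodes picked by UMI rules: 460 and 539 fibroblast-marked, 259 and 221 endothelial-marked, and 368 and 342 leukocyte-marked barcodes. Fibroblasts are the other large connective tissue population of the mesentery. Of 9796 genes tested against fibroblast-marked barcodes, edgeR called 1782 higher and 1835 lower in mesothelial barcodes, 36.9% in either direction, 18.2% higher and 18.7% lower, with a median log2 fold change of −0.03. The genes that defined fibroblast-marked barcodes were left out of these counts. The comparison against fibroblast-marked barcodes and the one against all other barcodes share the mesothelial sums and most fibroblast barcodes.

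The largest increases over fibroblast-marked barcodes, among genes with at least 100 CPM in mesothelial barcodes of both mice, were Krt7, Krt18, Igfbp2, Ano1, Cxadr, Krt8, Upk1b, Stmn2, Lsr and Il17re. All 10 stood at or under 1.74 CPM in fibroblast-marked barcodes of either mouse, and DESeq2 called all but Krt7 (adjusted p = 0.0863). Ano1, a calcium-activated chloride channel, was at 235 and 309 CPM in mesothelial and 0 and 1.16 CPM in fibroblast-marked barcodes. Stmn2, a microtubule regulator best known from neurons, was at 267 and 398 CPM, against 0.578 and 1.74 CPM. Lsr, a protein of tricellular junctions, was at 190.2 and 123 CPM and the interleukin-17 receptor subunit Il17re at 124 and 129.5 CPM in mesothelial barcodes. In fibroblast-marked barcodes Lsr was at 0.578 and 0.579 CPM and Il17re at 0.578 and 0.579 CPM. The largest decreases were Aspn, Pla1a, Efhd1, Cilp, Svep1, Ccl11, Penk, Ebf1, Ebf2 and Cxcl12. Aspn, Pla1a, Efhd1 and Cilp had no UMI in mesothelial barcodes. In fibroblast-marked barcodes Aspn stood at 275 and 214 CPM, the phospholipase gene Pla1a at 222 and 161 CPM, Efhd1 at 135 and 109 CPM and the cartilage matrix gene Cilp at 113 and 109 CPM. Ebf1, a transcription factor of stromal and B cells, was at 9.88 and 6.37 CPM in mesothelial and 1100 and 1235 CPM in fibroblast-marked barcodes (log2 fold change −7.45, SE 0.24).

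Wt1, Pdpn and Il33 were present in both mesothelial and fibroblast-marked barcodes and higher in the mesothelial ones, which held little Pdgfra. Wt1 (chromosome 2, 105126529 to 105173616) was at 447 and 484 CPM in mesothelial barcodes, against 161 and 166 CPM in fibroblast-marked, 12.2 and 15.1 CPM in endothelial-marked and 1.84 and 0 CPM in leukocyte-marked barcodes. It was higher than in fibroblast-marked barcodes (log2 fold change 1.32, SE 0.13, adjusted p = 1.41e-11, edgeR), and the values of the mice did not overlap. Pdpn, the surface glycoprotein podoplanin, was at 464 and 522 CPM in mesothelial and 182 and 243 CPM in fibroblast-marked barcodes (log2 fold change 1.02, SE 0.13, adjusted p = 6.66e-09, edgeR). Il33, an alarmin cytokine, was at 91.4 and 105 CPM, against 60.1 and 56.2 CPM (log2 fold change 0.59, SE 0.19, adjusted p = 0.0138, edgeR). That Il33 call ended without the filter on low counts (adjusted p = 0.0510, edgeR) and with DESeq2 (adjusted p = 0.345). Pdgfra, which helped to define fibroblast-marked barcodes, was at 7.41 and 4.25 CPM in mesothelial and 221 and 252 CPM in fibroblast-marked barcodes.

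**Figure D3:**
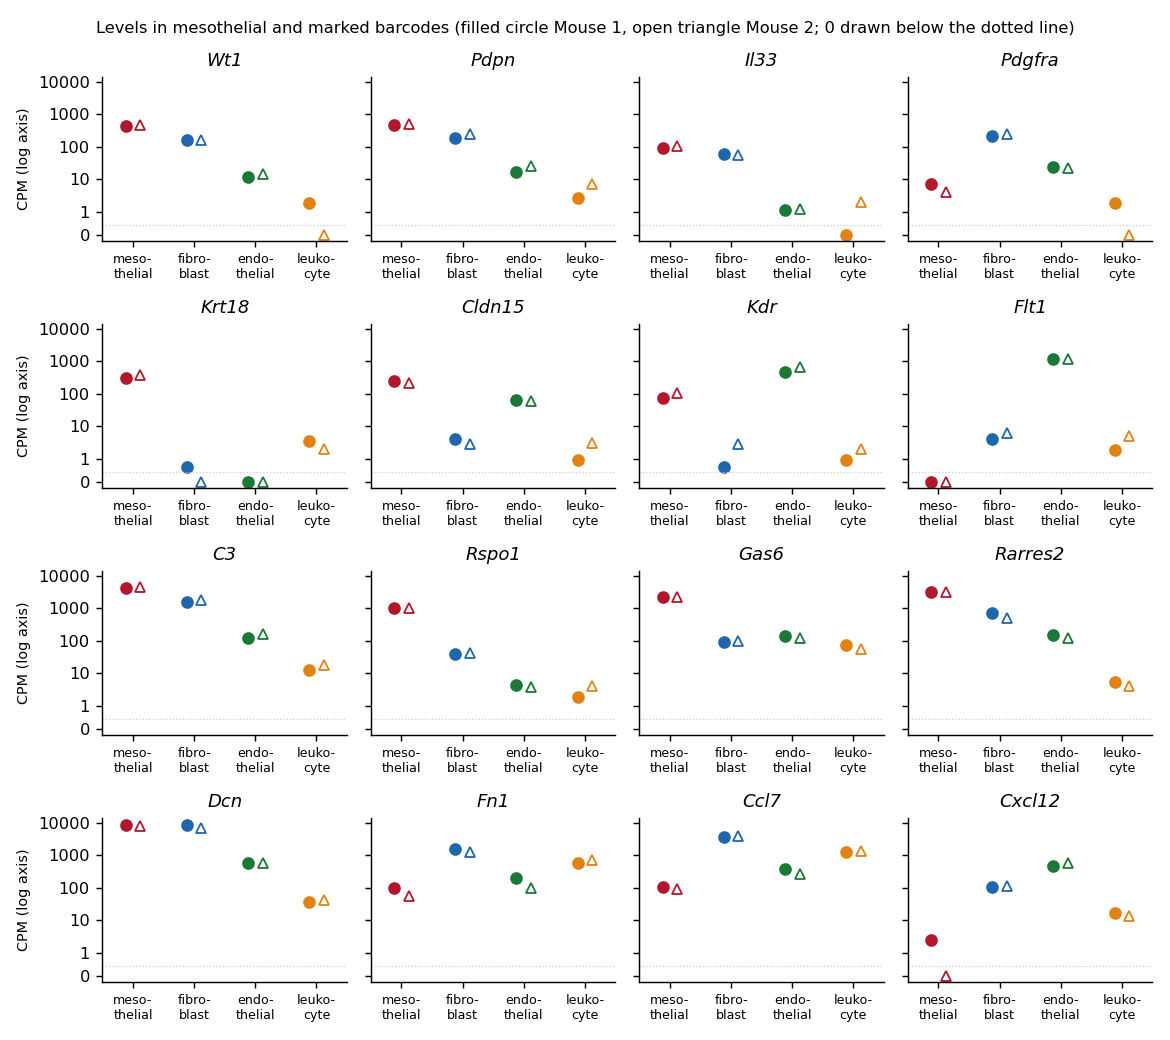
Level (vertical axis, CPM, logarithmic, with 0 drawn below the dotted line) of 16 genes in mesothelial, fibroblast-marked, endothelial-marked and leukocyte-marked barcodes. Filled circles are Mouse 1 and open triangles Mouse 2; Wt1 and Pdpn run from mesothelial down to leukocyte-marked barcodes, while mesothelial barcodes have Flt1 at 0 and Kdr between fibroblast- and endothelial-marked barcodes.

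The following gene lists group the known functions of mesothelium and its neighbours. Counts of called genes in a list are to be read beside the shares over all genes tested. Those were 20.9% higher and 25.3% lower against all other barcodes, and 18.2% and 18.7% against fibroblast-marked barcodes. From each list, genes among the 6 with the highest mesothelial level could be named by rule. Muc16, Rspo3, Calb2, Gata4, Gata6, Isl1, Bnc1, Klf5, Tcf21, Prrx1, Twist2, Cdh2, Cdh3, Cldn1, Ocln, Dsp, Aqp1, Aqp5, Has2, Prg4, Cd55, Cmklr1, Aldh1a3, Cyp26b1, Igf1, Wnt4, Fgf7, Fgf10, Tgfb1, Met, Fbln1, Fn1, Col4a1, Col4a2, Col4a6, Il18, Dpp4, Cd36, Tpm2 and Mki67 were chosen after their values were seen, as were the single markers of other cell types above.

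Surface and identity genes of mesothelium were mostly higher: of 13 tested, 10 were higher and 2 lower than in all other barcodes (median log2 fold change 2.48), and 9 were higher and 2 lower than in fibroblast-marked barcodes (median 2.95). Rspo1, a secreted amplifier of Wnt signals, was at 993 and 1003 CPM in mesothelial and 39.3 and 42.3 CPM in fibroblast-marked barcodes (log2 fold change 4.41, SE 0.15). Its relative Rspo3 was at 0 and 3.18 CPM, against 46.8 and 50.4 CPM. Podxl, the sialomucin of podocytes and vessels, was at 225 and 282 CPM in mesothelial, 0.578 and 2.32 CPM in fibroblast-marked and 116 and 160.2 CPM in endothelial-marked barcodes. Muc16, the mucin that binds mesothelin, was at 98.8 and 166 CPM, against 0 and 1.16 CPM in fibroblast-marked barcodes. Calb2, known as a human mesothelial marker, had no UMI in any barcode used here.

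Among transcription factors of serosa and stroma, 14 of 21 tested were higher and 6 lower than in all other barcodes (median 1.58), and 10 were higher and 7 lower than in fibroblast-marked barcodes (median 0.86). The factors that were higher include Osr1, Gata6, Isl1, Bnc1 and Klf5, and those that were lower include Ebf1, Ebf2, Tcf21, Prrx1 and Twist2. Osr1, a factor of intermediate mesoderm, was at 304 and 278 CPM in mesothelial and 35.8 and 42.3 CPM in fibroblast-marked barcodes. Gata6 stood at 126 and 110.4 CPM in mesothelial barcodes, against 21.4 and 15.6 CPM, and Gata4 had no UMI in either. The LIM-homeodomain gene Isl1 was at 88.9 and 103 CPM and the zinc finger gene Bnc1 at 61.8 and 70.0 CPM in mesothelial barcodes, with Isl1 at 0 and 2.32 CPM and Bnc1 at 0 in fibroblast-marked barcodes. Tcf21, a factor of fibroblast lineages, was at 2.47 and 7.43 CPM in mesothelial and 239.7 and 254 CPM in fibroblast-marked barcodes. Meis2, a homeodomain gene, did not differ past the threshold from fibroblast-marked barcodes (log2 fold change −0.03, SE 0.17). Klf4, at 1317 and 1680 CPM in mesothelial and 1315 and 1018 CPM in all other barcodes, was called higher (log2 fold change 0.23, SE 0.10), but its log2 fold change was −0.26 without Mouse 2. That call ended when the mouse was not a term of the model (adjusted p = 0.285, edgeR), when Scrublet doublets were left out (adjusted p = 0.153, edgeR) and with DESeq2 (adjusted p = 0.690). Klf4 was called lower than in fibroblast-marked barcodes (log2 fold change −0.45, SE 0.11), a call that DESeq2 did not make (adjusted p = 0.156).

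Keratins and junction genes were higher with none lower: 13 of 16 tested were higher and 0 lower than in all other barcodes (median 3.89), and 15 of 15 were higher than in fibroblast-marked barcodes (median 6.11). Fibroblast-marked barcodes were picked to hold at most 1 marker UMI, Krt19 included, and list genes near 0 in them were tested through other kinds. The count of 15 of 15 therefore follows largely from these choices. Cldn15, a claudin that forms cation pores, was at 247 and 219 CPM in mesothelial and 4.04 and 2.9 CPM in fibroblast-marked barcodes (log2 fold change 5.82, SE 0.26). F11r, junctional adhesion molecule A, was at 222 and 282 CPM, against 1.16 and 5.21 CPM, and Ezr, a linker of membrane and actin in microvilli, at 284 and 275 CPM, against 35.2 and 29.5 CPM. Cdh3, P-cadherin, was at 54.3 and 44.6 CPM and Cldn1 at 61.8 and 46.7 CPM in mesothelial barcodes, and both were at 0 in fibroblast-marked barcodes. The classical epithelial genes Cdh1, Ocln and Dsp did not pass the filter on low counts, which takes all kinds in a fit together, and were not tested. In mesothelial barcodes Cdh1 was at 0 and 1.06 CPM, Ocln at 2.47 and 1.06 CPM and Dsp at 2.47 and 6.37 CPM. The N-cadherin gene Cdh2 was at 0 and 3.18 CPM there.

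Transport genes were largely higher, with 9 of 13 tested higher and 3 lower than in all other barcodes (median 2.86) and 9 higher and 0 lower than in fibroblast-marked barcodes (median 3.71). Slc9a3r1, a scaffold of apical transporters, was at 366 and 368 CPM in mesothelial and 15 and 15.6 CPM in fibroblast-marked barcodes (log2 fold change 4.38, SE 0.19). Atp1b1, a subunit of the sodium pump, was at 309 and 309 CPM, against 22.5 and 18.5 CPM (log2 fold change 3.71, SE 0.18). The lactate transporter Slc16a1 was at 279 and 243 CPM, against 21.4 and 15.6 CPM, and the zinc and manganese transporter Slc39a8 at 156 and 173 CPM, against 5.2 and 6.95 CPM. Of the water channels, Aqp5 was at 37 and 50.9 CPM in mesothelial and 0 and 0 CPM in fibroblast-marked barcodes. Aqp1 was at 17.3 and 13.8 CPM in mesothelial barcodes, against 3289 and 2543 CPM in endothelial-marked barcodes.

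Glycocalyx and lubricant genes divided, with 5 of 10 tested higher and 4 lower than in all other barcodes (median 0.33) and 4 higher and 6 lower than in fibroblast-marked barcodes (median −0.92). The syndecan Sdc4 was at 637 and 845 CPM in mesothelial and 277 and 377 CPM in fibroblast-marked barcodes (log2 fold change 1.00, SE 0.13). The hyaluronan synthases were lower: Has1 was at 375 and 239 CPM, against 786 and 569 CPM, and Has2 at 2.47 and 0 CPM, against 116 and 107 CPM in fibroblast-marked barcodes. Has1 was not called against all other barcodes (log2 fold change −0.06, SE 0.11) and had a log2 fold change of 2.87 against the equally weighted mean of fibroblast-, endothelial- and leukocyte-marked barcodes. Prg4, the joint lubricant lubricin, was at 0 and 2.12 CPM in mesothelial barcodes.

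Complement genes, whose proteins opsonise microbes and attract leukocytes, were largely higher. Of 14 complement genes tested, 9 were higher and 4 lower than in all other barcodes (median 1.50), and 8 were higher and 4 lower than in fibroblast-marked barcodes (median 0.85). C3, the central component, was at 4276 and 4660 CPM in mesothelial and 1602 and 1840 CPM in fibroblast-marked barcodes (log2 fold change 1.18, SE 0.09, adjusted p = 4.57e-15, edgeR). C2, the catalytic subunit of the classical C3 convertase, was at 398 and 379.9 CPM, against 8.66 and 12.2 CPM, and Cfb, its counterpart in the alternative pathway, at 249.5 and 244 CPM, against 9.24 and 12.2 CPM. Clu, clusterin, a chaperone that restrains the terminal complex, was at 702 and 527 CPM, against 16.2 and 19.1 CPM (log2 fold change 4.91, SE 0.19). Cd55, an inhibitor of convertases on the cell surface, was lower, at 29.6 and 35 CPM in mesothelial and 347 and 413 CPM in fibroblast-marked barcodes. The macrophage gene C1qa was at 17.3 and 4.25 CPM in mesothelial barcodes.

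Among genes of retinoic acid and chemerin, 5 of 12 tested were higher and 4 lower than in all other barcodes (median 0.57), with the same counts against fibroblast-marked barcodes (median 0.21). Rarres2, the precursor of the chemoattractant chemerin, was at 3238 and 3089 CPM in mesothelial and 709 and 505 CPM in fibroblast-marked barcodes (log2 fold change 2.21, SE 0.11). Its receptor gene Cmklr1 had no UMI in mesothelial barcodes and stood at 20.8 and 24.9 CPM in fibroblast-marked barcodes. Of the retinaldehyde dehydrogenases, Aldh1a1 was at 363 and 393 CPM, against 53.1 and 48.6 CPM, and Aldh1a3 was at 4.94 and 2.12 CPM, against 44.5 and 63.1 CPM. Aldh1a2, at 98.8 and 87 CPM, against 57.2 and 63.7 CPM, was not called (log2 fold change 0.38, SE 0.19). Cyp26b1, which degrades retinoic acid, was at 0 and 2.12 CPM in mesothelial barcodes, against 21.9 and 13.3 CPM.

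Binding proteins of insulin-like growth factors stood high: of 8 genes of that system tested, 4 were higher and 2 lower than in all other barcodes (median 1.22), and 5 were higher and 2 lower than in fibroblast-marked barcodes (median 1.20). Igfbp6 was at 6111 and 5139 CPM in mesothelial and 1870 and 1541 CPM in fibroblast-marked barcodes (log2 fold change 1.53, SE 0.10), Igfbp4 at 2640 and 2763 CPM, against 941 and 954 CPM, and Igfbp5 at 1275 and 1323 CPM, against 519 and 551 CPM. The ligand Igf1 was lower, at 27.2 and 19.1 CPM, against 85.5 and 78.2 CPM. Igfbp7 was called lower than in all other barcodes (log2 fold change −0.26, SE 0.08) but had a log2 fold change of 1.33 against the equally weighted mean of the 3 marked kinds. That call also ended when the mouse was not a term of the model (adjusted p = 0.161, edgeR) and with DESeq2 (adjusted p = 0.0723).

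Growth factors and morphogens were higher in 14 of 24 tested genes and lower in 5 than in all other barcodes (median 1.01), and higher in 11 and lower in 7 than in fibroblast-marked barcodes (median 0.96). Gas6, the ligand of the Axl family of receptors, was at 2260 and 2249 CPM in mesothelial and 91.3 and 102 CPM in fibroblast-marked barcodes (log2 fold change 4.35, SE 0.13). Fgf1 was at 916 and 904 CPM, against 17.3 and 20.3 CPM (log2 fold change 5.39, SE 0.17), and the related Fgf9 at 86.5 and 106 CPM, against 5.2 and 6.37 CPM. Bmp4 stood at 136 and 140.1 CPM, against 24.3 and 21.4 CPM, and Wnt4 at 61.8 and 122 CPM, against 4.04 and 5.79 CPM. Fgf7 and Fgf10, mesenchymal ligands of an epithelial receptor, had no UMI in mesothelial barcodes, and Fgf7 was at 20.8 and 16.2 CPM in fibroblast-marked barcodes. Tgfb1 was at 14.8 and 26.5 CPM in mesothelial and 64.7 and 66 CPM in fibroblast-marked barcodes, while Tgfb3 was at 124 and 91.3 CPM, against 24.3 and 31.8 CPM.

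Of the receptors of growth factors fewer were higher than lower, with 4 of 15 tested higher and 7 lower than in all other barcodes (median −0.22) and 4 higher and 6 lower than in fibroblast-marked barcodes (median −1.42). Ddr1, a collagen receptor of epithelia, was at 156 and 139 CPM in mesothelial and 13.9 and 14.5 CPM in fibroblast-marked barcodes (log2 fold change 3.15, SE 0.23). Met, the receptor of hepatocyte growth factor, was at 44.5 and 44.6 CPM, against 0.578 and 0 CPM. Axl was lower, at 146 and 139 CPM, against 770.0 and 796 CPM (log2 fold change −2.67, SE 0.14). Axl and Tgfbr3 were also called lower than in all other barcodes, but against the equally weighted mean of the 3 marked kinds their log2 fold changes were 0.084 and 1.15. DESeq2 did not call Tgfbr3 lower either (adjusted p = 0.178).

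**Figure D4:**
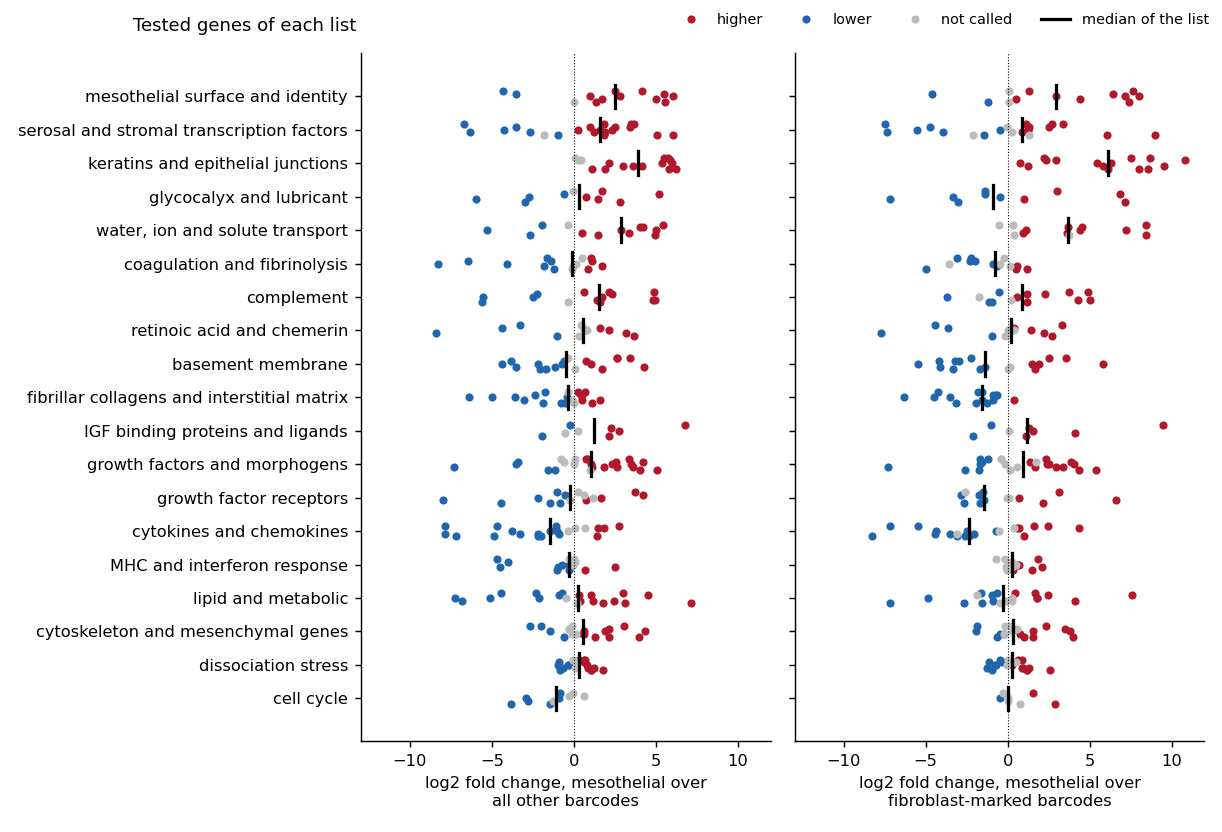
Log2 fold change (horizontal axis) of each tested gene, mesothelial over all other barcodes (left) and mesothelial over fibroblast-marked barcodes (right), by gene list (vertical axis). Red points were called higher, blue points lower and grey points not called, and black bars are the medians of the lists, from 3.89 for keratins and junctions to −1.46 for cytokines and chemokines in the left panel.

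Genes of interstitial matrix were mostly lower than in fibroblast-marked barcodes. Those barcodes were picked by collagen and proteoglycan genes, so the lower calls follow in part from that choice. Of 21 genes of fibrillar collagens and interstitial matrix, 8 were higher and 10 lower than in all other barcodes (median −0.35), and of 15 tested against fibroblast-marked barcodes 1 was higher and 14 lower (median −1.59). The gene that was higher was Fbln1, a matrix glycoprotein, at 571 and 517 CPM in mesothelial and 367 and 364 CPM in fibroblast-marked barcodes (log2 fold change 0.37, SE 0.12). Fn1, fibronectin, was at 101 and 56.2 CPM, against 1564 and 1296 CPM (log2 fold change −4.48, SE 0.19), and Col14a1 at 19.8 and 7.43 CPM, against 909.7 and 732 CPM. Dcn, Col3a1, Col1a2 and Col1a1 helped to define fibroblast-marked barcodes and were not tested against them. Dcn, the proteoglycan decorin, nevertheless stood at 8840 and 7806 CPM in mesothelial and 8716 and 7036 CPM in fibroblast-marked barcodes, values that overlap. Col3a1 was at 1914 and 2101 CPM, against 2875 and 3315 CPM.

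Basement membrane genes divided by chain. Of 18 tested, 7 were higher and 9 lower than in all other barcodes (median −0.48), and 6 of 17 were higher and 9 lower than in fibroblast-marked barcodes (median −1.37). Col18a1, the source of endostatin, was at 331 and 245 CPM in mesothelial and 39.3 and 47.5 CPM in fibroblast-marked barcodes (log2 fold change 2.49, SE 0.17), and Nid2 was at 146 and 157 CPM, against 31.8 and 40.0 CPM. Its paralog Nid1 was at 114 and 81.7 CPM, against 883 and 802 CPM. Among type IV collagens, Col4a5 was at 96.3 and 87 CPM, against 25.4 and 30.7 CPM, and Col4a6 at 37 and 46.7 CPM, against 1.16 and 4.63 CPM. The more widespread chains ran the other way, with Col4a1 at 74.1 and 37.1 CPM in mesothelial and 736 and 768 CPM in fibroblast-marked barcodes, and Col4a2 at 24.7 and 19.1 CPM, against 309 and 354 CPM. Hspg2, called lower than in all other barcodes (log2 fold change −0.59, SE 0.14), had a log2 fold change of 0.77 against the equally weighted mean of the 3 marked kinds. DESeq2 did not call it lower either (adjusted p = 0.136).

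Of 15 genes of coagulation and fibrinolysis tested, 4 were higher and 7 lower than in all other barcodes (median −0.10), and of 14 tested against fibroblast-marked barcodes 3 were higher and 7 lower (median −0.77). Over all genes tested the shares higher were 20.9% and 18.2%, near those of this list, and the shares lower 25.3% and 18.7%. Thbd, thrombomodulin, was at 1023 and 1063 CPM in mesothelial and 395 and 465 CPM in all other barcodes (log2 fold change 1.12, SE 0.09), and was not called against fibroblast-marked barcodes (log2 fold change 0.12, SE 0.11). Plat, tissue plasminogen activator, was at 398 and 415 CPM, against 253 and 230.4 CPM in fibroblast-marked barcodes (log2 fold change 0.56, SE 0.13).

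Chemokines and cytokines had a median of −1.46 against all other barcodes, where 4 of 21 tested were higher and 14 lower. Against fibroblast-marked barcodes 6 were higher and 12 lower (median −2.38). Ccl7, a monocyte attractant, was at 104 and 92.3 CPM in mesothelial and 3716 and 3904 CPM in fibroblast-marked barcodes (log2 fold change −5.49, SE 0.14). Ccl2 was at 158 and 121 CPM, against 2483 and 2431 CPM, Cxcl1 at 580.5 and 726 CPM, against 4815 and 4848 CPM, and the eosinophil attractant Ccl11 at 7.41 and 3.18 CPM, against 1427 and 1233 CPM. Il18, an inflammasome cytokine, was higher, at 66.7 and 84.9 CPM in mesothelial and 13.9 and 11 CPM in fibroblast-marked barcodes (log2 fold change 2.47, SE 0.28).

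Antigen presentation and interferon genes were higher in 2 and lower in 8 of 14 than in all other barcodes (median −0.32), and higher in 6 and lower in 0 than in fibroblast-marked barcodes (median 0.29). Cd74, the class II invariant chain, was at 183 and 202 CPM in mesothelial, 166 and 213 CPM in fibroblast-marked and 16715 and 10336 CPM in leukocyte-marked barcodes. Its log2 fold change against all other barcodes was −4.72, and −5.35 without Mouse 2. The class I gene H2-K1 was at 629.9 and 621 CPM, against 343 and 333 CPM in fibroblast-marked barcodes (log2 fold change 0.70, SE 0.11).

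Of 20 lipid and metabolic genes tested, 10 were higher and 8 lower than in all other barcodes (median 0.24), and 7 were higher and 8 lower than in fibroblast-marked barcodes (median −0.28). Ptgis, prostacyclin synthase, was at 598 and 593 CPM in mesothelial and 165 and 138 CPM in fibroblast-marked barcodes (log2 fold change 1.79, SE 0.13). Fmo2, a flavin monooxygenase, was at 627 and 490.3 CPM, against 138 and 164 CPM, and the peptidase Dpp4 at 239.6 and 231 CPM, against 42.2 and 32.4 CPM. Fabp4 and Cd36, fatty acid carriers of fat and capillaries, were far lower than in endothelial-marked barcodes, Fabp4 at 49.4 and 103 CPM, against 16431 and 11261 CPM, and Cd36 at 12.3 and 5.31 CPM, against 3141 and 3156 CPM.

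In the cytoskeletal and mesenchymal list, 10 of 19 genes were higher and 4 lower than in all other barcodes (median 0.55), and 8 were higher and 5 lower than in fibroblast-marked barcodes (median 0.35). The tropomyosin gene Tpm2 was at 279 and 295 CPM in mesothelial and 52 and 46.3 CPM in fibroblast-marked barcodes, and Tpm1 at 437 and 347 CPM, against 121 and 109 CPM. Vim, the mesenchymal filament vimentin, was at 1284 and 1576 CPM, against 1483 and 1434 CPM, and was not called (log2 fold change −0.22, SE 0.10), but was called lower without the filter on low counts (log2 fold change −0.31, adjusted p = 0.00789, edgeR). Dissociation stress genes, which enzymatic digestion is known to induce, were higher in 10 of 19 and lower in 6 than in all other barcodes (median 0.33), and higher in 9 and lower in 7 than in fibroblast-marked barcodes (median 0.27). Fos was at 2655 and 3269 CPM in mesothelial and 1103 and 1179 CPM in fibroblast-marked barcodes, and Junb at 1954 and 1896 CPM, against 4096 and 3364 CPM. Their part in the other results was not tested. Of 10 cell cycle genes tested 0 were higher and 6 lower than in all other barcodes (median −1.10), and of 8 tested against fibroblast-marked barcodes 2 were higher and 1 lower (median 0.03). The proliferation gene Mki67 was at 2.47 and 0 CPM in mesothelial and 8.99 and 10.9 CPM in all other barcodes.

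Endothelial-marked barcodes gave a further comparison, since mesothelium and endothelium are both flat lining layers. Of 9803 genes tested, edgeR called 47.3% in either direction, 2310 higher (23.6%) and 2330 lower (23.8%) in mesothelial barcodes, with a median log2 fold change of −0.02. Kdr, the main receptor of vascular endothelial growth factor, was lower, at 74.1 and 104 CPM in mesothelial and 487 and 672 CPM in endothelial-marked barcodes. It was nevertheless higher than in fibroblast-marked barcodes, where it stood at 0.578 and 2.9 CPM (log2 fold change 5.41, SE 0.37, adjusted p = 9.44e-17, edgeR). Esam, an endothelial adhesion molecule, showed the same order, at 49.4 and 59.4 CPM in mesothelial, 564 and 494 CPM in endothelial-marked and 1.16 and 2.32 CPM in fibroblast-marked barcodes. Blood endothelial markers as a list did not share this rise over fibroblast-marked barcodes. Of 11 tested, 2 were higher, 4 lower and 5 not called there (median −0.21), where 18.2% of all genes tested were higher and 18.7% lower. Flt1, the sister receptor of Kdr, had no UMI in mesothelial barcodes, against 1219 and 1219 CPM in endothelial-marked barcodes, and Pecam1 was at 9.88 and 7.43 CPM, against 741 and 850.2 CPM. Csf1r, a macrophage receptor, was lower than in all other barcodes but higher than in fibroblast-marked barcodes, at 39.5 and 53.1 CPM in mesothelial and 5.2 and 9.84 CPM in fibroblast-marked barcodes. Of 10 macrophage and monocyte markers tested against fibroblast-marked barcodes, 1 was higher, 3 were lower and 6 were not called. The macrophage genes Adgre1 and Lyz2 were at 0 and at 22.2 and 6.37 CPM in the same mesothelial barcodes. F11r was not called against endothelial-marked barcodes, where it stood at 281 and 217 CPM. Cldn15 was higher in mesothelial barcodes than in endothelial-marked ones, where it stood at 64.3 and 60.5 CPM.

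The share of barcodes with a UMI was compared after each barcode was thinned to 1000 UMIs, which left out 0 and 1 mesothelial barcodes. C3 was then seen in 98.4% and 98.8% of mesothelial barcodes, against 2.47% and 2.13% of leukocyte-marked barcodes, taken as the background, and 74.1% and 77.2% of fibroblast-marked barcodes. Rarres2 was seen in 91.9% and 79.1%, against 0.549% and 0.608% of leukocyte-marked and 48.5% and 36.9% of fibroblast-marked barcodes. Slpi was seen in 53.2% and 43.6% of mesothelial barcodes and Wt1 in 46.8% and 38.7%, against 0.824% and 1.82% for Slpi and 0% for Wt1 in leukocyte-marked barcodes of both mice. In fibroblast-marked barcodes Wt1 was seen in 15.4% and 15.7% and Slpi in 0.439% and 0%. Without thinning Slpi reached 77.4% and 67.1% and Wt1 88.7% and 87.8% of mesothelial barcodes. Kdr was seen in 9.68% and 11.7% of thinned mesothelial barcodes, against 0.275% and 0% of leukocyte-marked barcodes. The median mesothelial barcode held 6707.5 and 5814.5 UMIs, and the median leukocyte-marked barcode 2230.0 and 2166.

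Mesothelial barcodes also differed among themselves, and Slpi varied most. Among 3077 genes with at least 20 UMIs in mesothelial barcodes of each mouse, its variance of Pearson residuals, where about 1 is what counting alone gives, was 17.1 and 17.9, against medians of 1.07 and 1.09. The next in order were Mt1, Malat1, Mt2, Lgals1, Fos, Cxcl1, Igfbp5, Gm12840, Tmsb4x, Crip1, Egr1, Dcn, Igfbp6, Rarres2, Meg3, Col3a1, Phlda1, Neat1 and Fosb. Mt1 and Mt2 are metallothioneins, Fos, Egr1 and Fosb immediate-early genes, Malat1, Meg3 and Neat1 long noncoding RNAs. Slpi had no UMI in 14 of 62 mesothelial barcodes of Mouse 1 and 54 of 164 of Mouse 2, and at least 10 UMIs in 20 and 43. Per 10000 UMIs its median was 6.18 and 4.29 and its 90th percentile 91.2 and 63.9. Its highest count in a barcode was 156 UMIs in Mouse 1 and 257 in Mouse 2.

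Other genes went with Slpi across mesothelial barcodes, and those named here were chosen after their values were seen. As a description, with barcodes of a mouse sharing a library and differing in depth, Spearman's rho over 62 and 164 barcodes was 0.45 and 0.41 for Fxyd3, 0.39 and 0.46 for Rarres2, and 0.31 and 0.37 for Msln. It was −0.39 and −0.35 for Wnt4 and −0.33 and −0.33 for Igfbp2. Of 3076 genes, 9 had a rho above 0.3 and 4 a rho below −0.3 in both mice. In sums over the 20 and 43 mesothelial barcodes with at least 10 Slpi UMIs, Fxyd3, a regulator of the sodium pump, was at 155 and 169.9 CPM, against 0 and 19.8 CPM in the 14 and 54 without Slpi. The prolactin receptor gene Prlr was at 125 and 151 CPM, against 0 and 31.7 CPM, Slc39a8 at 280.1 and 318 CPM, against 73.9 and 119 CPM, and Krt8 at 383 and 569.6 CPM, against 160.1 and 218 CPM. In these genes both values of the Slpi-rich barcodes were above both of those without Slpi. They were picked among the genes that rose with Slpi in the same barcodes. The difference therefore follows largely from their choice and adds no support.

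Genes on the other side, picked among those that fell with Slpi in the same barcodes, were lower in the Slpi-rich barcodes. Wnt4 was at 14.7 and 25.2 CPM in barcodes with at least 10 Slpi UMIs and 160.1 and 190.2 CPM in those without Slpi. Enpp2, which codes for autotaxin, an enzyme that makes lysophosphatidic acid, was at 413 and 352 CPM, against 1195 and 859.8 CPM, and Igfbp2 at 111 and 104 CPM, against 493 and 297 CPM. Upk3b had no common direction in the mice, at 1946 and 2574 CPM, against 2217 and 2088 CPM, and Wt1 was at 332 and 384 CPM, against 431 and 559 CPM. Slpi-rich barcodes were also deeper, with a median of 6957 and 6915 UMIs, against 5820.5 and 4127.5 in those without Slpi, and the part of depth in these differences was not tested. The classes are ranges of 1 gene and not cell types. The 28 and 67 barcodes with 1 to 9 Slpi UMIs were not always intermediate. In them Igfbp2 stood at 633 and 271 CPM, Wt1 at 537 and 519 CPM, Fxyd3 at 37.2 and 8.06 CPM and Slc39a8 at 101 and 86 CPM.

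**Figure D5:**
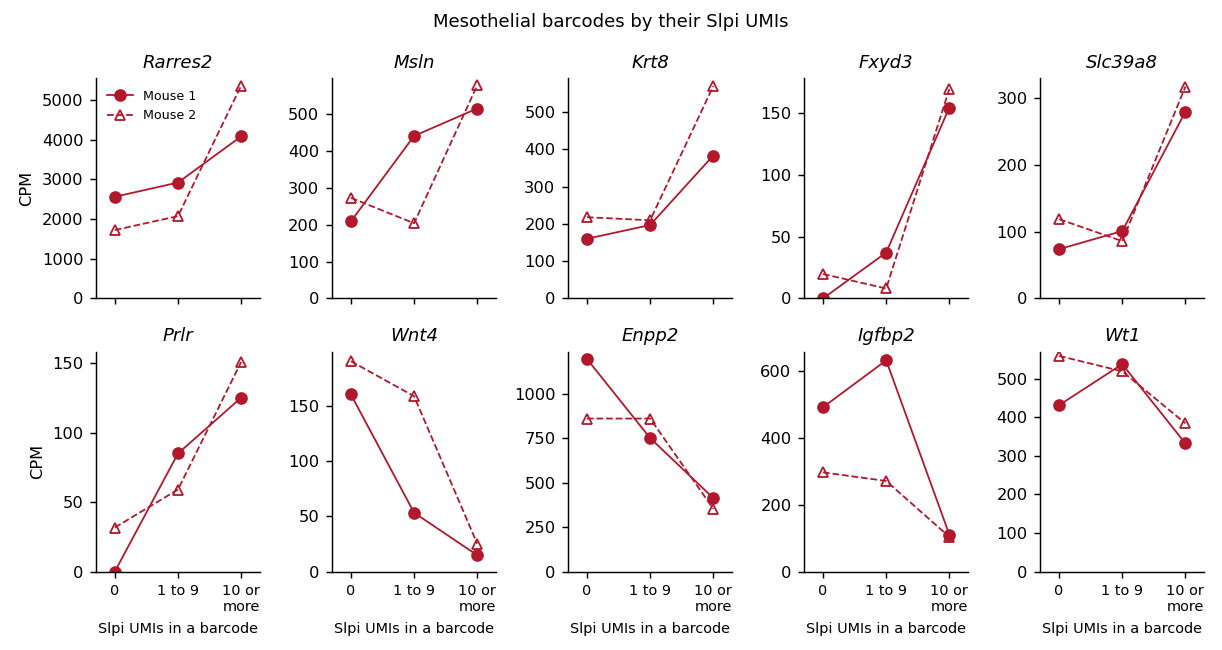
Level (vertical axis, CPM, linear from 0) of 10 genes in mesothelial barcodes grouped by their Slpi UMIs (horizontal axis: 0, 1 to 9, 10 or more). Filled circles and solid lines are Mouse 1 and open triangles and dashed lines Mouse 2; Fxyd3 and Slc39a8 are highest and Wnt4 and Enpp2 lowest in the barcodes with at least 10 Slpi UMIs in both mice.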

How the data were processed

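Droplet 3′ RNA-seq libraries of mesentery from 2 mice were analysed from the deposited matrix of UMI counts per gene and barcode. Per the submitters' processing notes these counts come from Cell Ranger on build mm10. The version of Cell Ranger and the barcode threshold are not given in the sources used here. The number after each barcode was matched to the mouse number in the titles. No doublet was removed, and no filter was applied beyond those named in the report.

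Fibroblast-marked barcodes had at least 10 summed UMIs of Dcn, Col3a1, Col1a2, Col1a1, Lum, Dpt and Pdgfra and passed the same exclusions. Endothelial-marked barcodes had at least 2 UMIs of Cdh5 and Cldn5 and none of Ptprc. Leukocyte-marked barcodes had at least 1 UMI of Ptprc, at most 1 of Cdh5 and Cldn5, and fewer than 10 of the fibroblast genes. All 3 kinds had at most 1 marker UMI. UMIs were summed per mouse and kind, and edgeR 4.0.16 (R 4.3.3, TMM, filterByExpr, quasi-likelihood) was fitted with the mouse as a term, since both sums of a mouse come from the same animal. The comparisons with fibroblast- and endothelial-marked barcodes used 8 sums with 3 residual degrees of freedom. Benjamini-Hochberg adjustment ran over all genes tested. DESeq2 1.42.0 was the alternative, and Scrublet ran in scanpy 1.11.5. Gene positions are from GENCODE on GRCm38, the assembly of mm10. The fit was also tested on simulated data with the same spread for every gene and no difference between mice. That setting differs from these data, so the simulation lends the calls no support.

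Genes named are the largest changes with at least 100 CPM in both mice, up to 6 members of each list with the highest mesothelial level, and others said to be chosen later. The members and the lists were chosen with earlier results of these data known. Intervals cover counting error only. In these pooled sums a fold change compares shares of all UMIs and not molecules per cell.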

Additional observations from a re-analysis of the deposited data

How the results depend on the processing

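The direction and call of most named log2 fold changes were kept under each alternative, for 124 of 141 values against all other barcodes and 126 of 136 against fibroblast-marked barcodes with the DESeq2 Wald test. That test gave 946 genes higher and 1091 lower against all other barcodes, where edgeR gave 2358 and 2858, and 1039 higher and 1080 lower against fibroblast-marked barcodes, where edgeR gave 1782 and 1835. The fit of 8 sums, mesothelial against the equally weighted mean of the 3 marked kinds, gave 2530 genes higher and 1865 lower, so that more genes were higher than lower. In that fit the log2 fold change was 2.87 for Has1, 0.77 for Hspg2, 0.22 for S100a10, 1.33 for Igfbp7, 0.084 for Axl and 1.15 for Tgfbr3, all with the opposite sign of the comparison with all other barcodes; its reference gives each marked kind the same weight. Klf4 had −0.26 without Mouse 2 and 0.53 without Mouse 1 against all other barcodes, and Fosb −0.076 and 0.43 against fibroblast-marked barcodes. The cause was not tested. With no replicate block, 2252 genes were higher and 2665 lower against all other barcodes, and 1635 higher and 1611 lower against fibroblast-marked barcodes. The calls it ended were those of Klf4, Igfbp7, B2m, H2-K1 and Gpx3 in the first comparison, and in the other they included Gpc3, B2m, S100a6, Fosb and Egr1. Leaving out a mouse leaves no residual degrees of freedom, so counts of called genes have no such value. Of 128 called named log2 fold changes against all other barcodes 11 moved by over 1.5 times without 1 mouse, and of 114 against fibroblast-marked barcodes 19 did, mostly genes near 0 in either kind. The shares of mesothelial barcodes moved within their counting intervals under the other marker thresholds, cell filters and doublet calls. With 404852 and 942362 mesothelial UMIs, a gene at 0 could stand at up to 7.41 and 3.18 CPM.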

Other observations

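The marker sum counts raw UMIs, so low sums pick shallow barcodes by construction. Mesothelial barcodes with a low marker sum were thus shallower than those with a high one in both mice. Those with sums of 7 to 17 had a median of 1960.0 UMIs in the 5 of Mouse 1 and 3573 in the 47 of Mouse 2, against 6846 and 6800.0 UMIs in the 56 and 107 with sums of 18 or more. Per 10000 UMIs the median marker count was 45.9 and 35.6 at low sums, against 48.2 and 49.2 at high sums. For Slpi the mice did not share a direction, with 4099 and 595 CPM at low sums, against 2535 and 3179 CPM at high sums. Rarres2 likewise stood at 4836 and 1371 CPM at low sums, against 3198 and 3565 CPM at high sums. The low class of Mouse 1 holds 5 barcodes only.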
